A study of Mus musculus with 6 samples.

Results

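The genes described here are 34 mouse genes of fatty acid oxidation and acyl-CoA metabolism, chosen by name. A gene was measured where the platform annotation gave at least 1 probe set its symbol alone, which held for 32 of the 34, with 55 probe sets among 45037. Acsl1 had no such probe set, and Cpt1b stood only on a probe set shared with other genes. Each gene was represented by the probe set with the highest mean over the 6 arrays, and 18193 genes of the whole array were represented in the same way. Total RNA came from 3 samples of the embryonic stem (ES) cell line CI#243.12, a knockout of Dppa4, and 3 samples of its parental line CI#84.2, which is hemizygous for Dppa4. Both lines were cultured on mouse embryonic fibroblast feeders, so both carried feeder RNA, and neither group had 2 intact copies of Dppa4. Each group was a single cell line, so a difference between the lines and an effect of the genotype cannot be told apart. Expression is given as log2 values after robust multi-array averaging (RMA), and changes are knockout minus parental on that scale, where a change of 1 is a doubling. Values given with a standard error (SE) or a 95% interval are such changes.

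Fatty acids enter these pathways when acyl-CoA synthetases join them to coenzyme A. The carnitine shuttle carries long chains into mitochondria, where repeated rounds of dehydrogenation, hydration, oxidation and thiolysis release acetyl-CoA and pass electrons to the respiratory chain. Peroxisomes shorten very long and branched chains, and acyl-CoA thioesterases split acyl-CoA back into free fatty acid and coenzyme A. Many of these genes are targets of the peroxisome proliferator-activated receptors (PPARs), nuclear receptors that bind fatty acids. Mouse ES cells are known for high glycolytic activity, and fibroblasts also express the oxidation enzymes.

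Dppa4, the targeted gene, read 10.30, 10.35 and 10.45 on the parental arrays and 8.68, 8.84 and 8.68 on the knockout arrays. The change was -1.63 (SE 0.08, adjusted p = 0.000112, limma), or 0.322-fold. The knockout signal thus stayed far above the background level given below, and the source of the remaining signal was not tested. Markers of ES cells were above background on 9 of 9 genes and those of feeder fibroblasts on 15 of 15. Background was set at 3.78, the 95th percentile of the mean signal of 80 probe sets for chemosensory (olfactory and vomeronasal) receptors. The mean of the feeder markers ran from 10.60 to 10.78 in parental and from 10.67 to 10.91 in knockout samples (change 0.12, exact permutation p = 0.2, two-sided). The mean of the ES markers ran from 10.93 to 11.00 and from 10.84 to 10.90 (change -0.08, exact permutation p = 0.1, the smallest that 3 against 3 can give). Nanog had the largest change of the 9 ES markers, at -0.49 (SE 0.10, adjusted p = 0.122, limma). Of the 9, 3 had a change above 0 and 6 below. Adipocyte markers were above background for 0 of 5 measured genes, trophoblast markers for 4 of 6 (not Gata3 and Elf5) and endoderm markers for 7 of 8 (not Gata4). The means of the last 3 lists lay between 3.18 and 4.90 on all arrays and overlapped between the groups.

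Of the 32 measured genes, 2 rose in knockout cells, Acot1 and Acaa2, and 0 fell (limma, adjusted p under 0.05). The remaining 30 did not pass. Over all 18193 genes, 0.0934% rose and 0.511% fell by the same rule. Both genes were known from earlier results when the list was drawn up, so the count says nothing independent of that choice. At an unadjusted p under 0.05, 5 of the 32 were higher and 2 lower, where all genes gave 4.66% and 6.37%. The knockout and parental arrays did not overlap for 6 genes in the higher and 3 in the lower direction, beside 7.23% and 9.11% of all genes. The median change was 0.07 over the 32 genes, with 23 above 0, and 0.00 over all genes, with 9080 of 18193 above 0. The feeder marker list had a median change of 0.12, with 13 of 15 genes above 0.

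**Figure D1:**
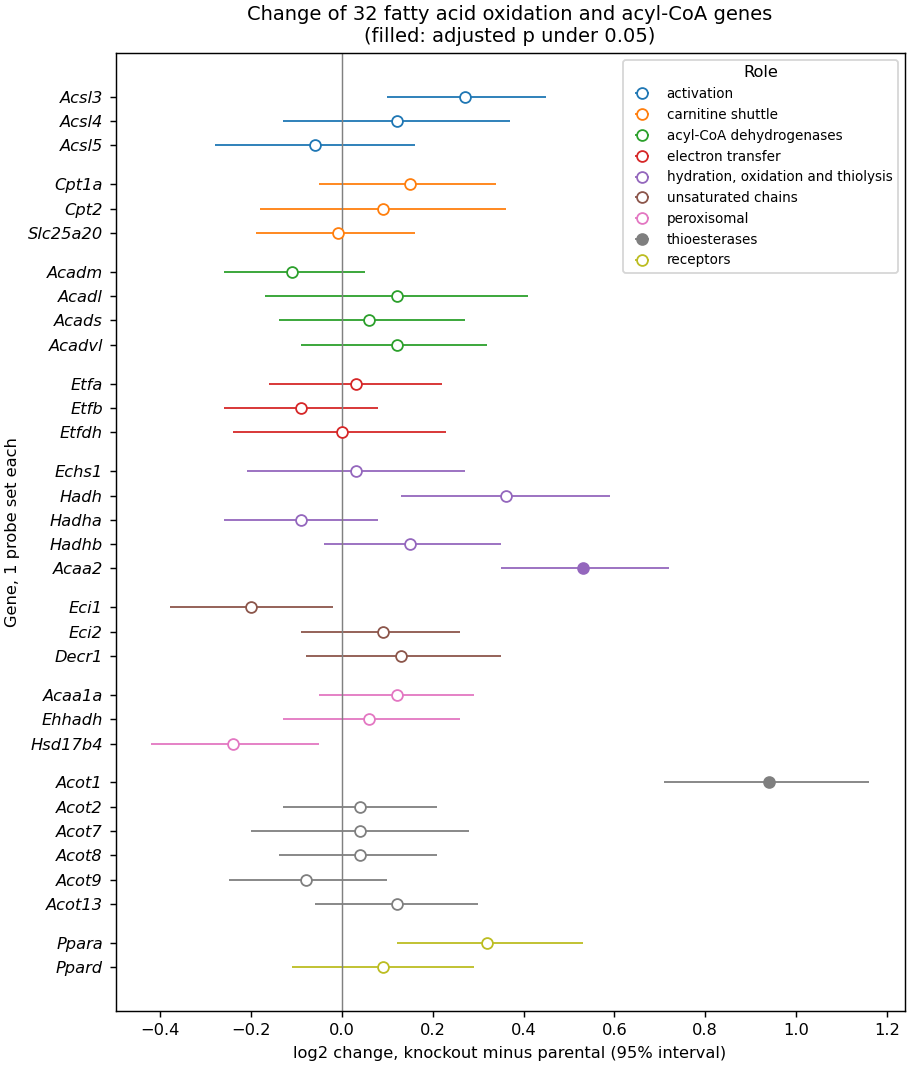
Log2 change (knockout minus parental) of the 32 measured genes with the 95% interval of the limma fit, coloured by role, with filled points for an adjusted p under 0.05. Acot1 at 0.94 and Acaa2 at 0.53 are the filled points, and the intervals of the other 30 genes lie between -0.42 and 0.59.

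Acot1 encodes a cytosolic thioesterase that hydrolyses long-chain acyl-CoA and is a known PPAR alpha target in liver. Its neighbour Acot2 encodes the closely related mitochondrial enzyme. The windows just before both gene starts are shown because Acot1 passed the test and its neighbour did not. They are the 250 bases before each start in RefSeq's table for GRCm38.p6, plus strand, with capitals at CCAAT on either strand.
Acot1, chr12:84009252-84009501: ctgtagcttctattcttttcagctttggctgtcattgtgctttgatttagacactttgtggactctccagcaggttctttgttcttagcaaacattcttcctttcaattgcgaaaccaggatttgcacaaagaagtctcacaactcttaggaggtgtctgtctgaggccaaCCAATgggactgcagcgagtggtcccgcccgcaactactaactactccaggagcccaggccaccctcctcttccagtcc
Acot2, chr12:83987611-83987860: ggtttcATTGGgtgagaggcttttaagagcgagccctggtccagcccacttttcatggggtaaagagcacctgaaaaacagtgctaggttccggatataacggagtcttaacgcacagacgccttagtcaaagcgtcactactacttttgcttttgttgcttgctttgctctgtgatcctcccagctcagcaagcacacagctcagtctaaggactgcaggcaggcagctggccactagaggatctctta
The longest run of bases found in both windows was 9. The CCAAT letters began at position -79 relative to the start in Acot1 and lay on the minus strand, from position -244, in Acot2. CCAAT occurred in 37.4% of the 32851 promoters of RefSeq's table, which reach 50 bases past each start. Promoters were listed for 29 of the 34 genes, and 16 of the 29 held it in at least 1 listed promoter. The 29 count genes and the 37.4% counts promoters, so these are not like shares. The genes without an entry were Acaa2, Acot13, Cpt1b, Decr1 and Hsd17b4, so Acot1 was the only called gene whose promoter was searched.

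The consensus form of the PPAR response element is a pair of AGGTCA half-sites 1 base apart. Searched on both strands as AGGTCANAGGTCA, it was found in the promoters of 0 of the 29 genes and in 0.0396% of all promoters. The looser form AGGNCANAGGNCA was found in 0 of 29 and in 0.381%. Shares this low make 0 of 29 likely for most sets of genes. Whether PPARs act on these genes was not tested. Single AGGTCA half-sites, of which the first form holds a pair, stood in 16.3% of all promoters. They also stood in promoters of 4 of the 29 genes, Acadm, Acadvl, Cpt1a and Echs1. Here too genes are set beside promoters. These matches describe letters in a short window and are not binding sites.

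Acot1 showed the largest change among the 32 genes. It read 5.49, 5.55 and 5.33 on the parental arrays and 6.48, 6.24 and 6.46 on the knockout arrays (probe set 1449065_at). The lowest knockout array was above the highest parental array. The means were 5.46 ± 0.11 and 6.39 ± 0.13 (SD, n = 3), a change of 0.94 (SE 0.10, adjusted p = 0.00716, limma), or 1.91-fold with a 95% interval of 1.64 to 2.23. With the feeder marker mean as a covariate the change was 0.80 (adjusted p = 0.0242). Both cell types can contribute to these bulk signals, and fewer cells of a type and less RNA per cell cannot be told apart.

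Acot1 and Acot2 share a probe set, 1422997_s_at, which cannot be assigned to either gene alone. It read 6.02, 5.94 and 5.78 in parental and 6.63, 6.48 and 6.95 in knockout samples, without overlap. Its change of 0.77 (SE 0.13, adjusted p = 0.0554, limma) did not pass. The probe sets annotated to Acot2 alone gave 0.04 (95% interval -0.13 to 0.21) and 0.13 (-0.08 to 0.33), the latter not above background. On the first of them Acot2 read 6.12, 6.06 and 6.11 in parental and 6.22, 6.13 and 6.06 in knockout samples, so the groups overlapped. Probe sequences were not used here, and whether the probe sets of these closely related genes also bind each other's transcripts was not tested. The difference between the changes of Acot1 and Acot2 was not itself tested, and the 95% interval of Acot1 was 0.71 to 1.16 on the log2 scale.

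On chromosome 12, RefSeq lists the Acot genes in the order Acot2, Acot1, Acot4, Acot3, Acot5 and Acot6. The change was 0.02 (SE 0.08) for Acot4, -0.08 (SE 0.11) for Acot3, 0.09 (SE 0.10) for Acot5 and 0.06 (SE 0.09) for Acot6, and none of these passed. Acot4 and Acot5 were not above background in either group. Among the 8 nearest protein-coding genes on each side, 15 were measured and 0 passed the test of limma, with Mideas at 0.22 giving the lowest adjusted p, 0.328. Acot1 was the only measured gene of this stretch that passed. Papln, Pnma1 and Gm31513 were, like Acot4 and Acot5, not above background. Over all genes, 0.0934% rose and 0.511% fell by the same rule, so 0 of 15 neighbours is near that share.

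**Figure D2:**
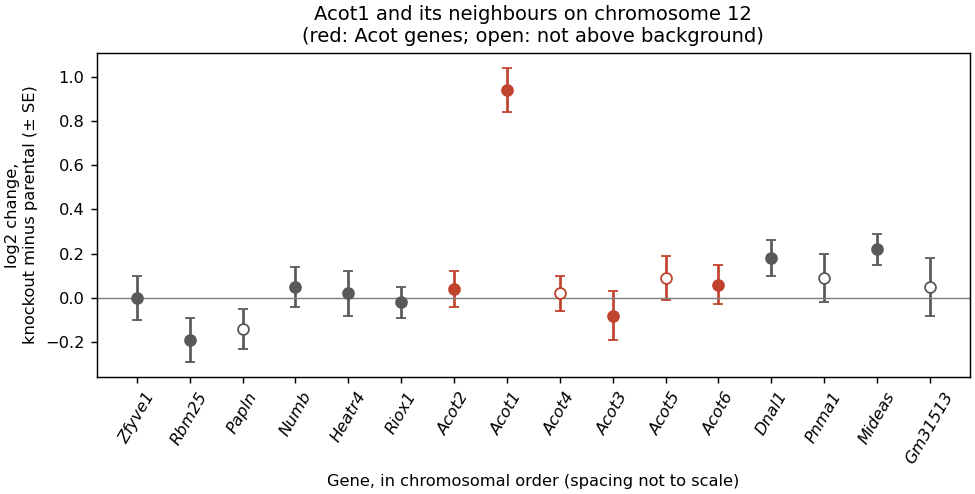
Log2 change (knockout minus parental, bars ± SE) of Acot1 and the 15 measured genes among its 16 nearest protein-coding neighbours, in chromosomal order. Acot1 stands at 0.94, and the other genes lie between -0.19 and 0.22.

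The other thioesterases did not pass. Acot7, an enzyme abundant in neurons, gave 0.04 (95% interval -0.20 to 0.28), and the peroxisomal Acot8 gave 0.04 (-0.14 to 0.21). The mitochondrial Acot9 gave -0.08 (-0.25 to 0.10) and Acot13 gave 0.12 (-0.06 to 0.30). In the list of further thioesterase genes, 9 of 10 were measured, 0 passed, and 0 were higher and 1 lower at an unadjusted p under 0.05. All genes gave 4.66% and 6.37% at that level. The 2 largest changes above background were those of Them4, a thioesterase gene (-0.31, SE 0.11, adjusted p = 0.399), and Acot11 (-0.13, SE 0.11, adjusted p = 0.771).

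Acaa2 encodes the mitochondrial thiolase of the last step of each oxidation round, which releases acetyl-CoA. It lies on chromosome 18. It read 7.74, 7.91 and 7.73 on the parental arrays and 8.33, 8.29 and 8.36 on the knockout arrays (probe set 1428146_s_at). The groups did not overlap, and the means were 7.79 ± 0.10 and 8.33 ± 0.04 (SD, n = 3). The change was 0.53 (SE 0.08, adjusted p = 0.0386, limma), or 1.45-fold with a 95% interval of 1.28 to 1.64. A further probe set, 1455061_a_at, gave 0.60 (adjusted p = 0.0233) and passed, and 1428145_at gave 0.42 (adjusted p = 0.0855) and did not. All 3 probe sets were higher on every knockout array than on every parental array.

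The Acaa2 call was lost when any 1 of the 6 arrays was left out. Its adjusted p was 0.179, 0.0557 and 0.154 without parental replicate 1, 2 or 3, and 0.166, 0.0982 and 0.171 without knockout replicate 1, 2 or 3, while the change stayed between 0.50 and 0.59. The fits without 1 array also called fewer probe sets over the whole table, 70 to 112 against 181. With the feeder marker mean as a covariate the change of Acaa2 was 0.47 (adjusted p = 0.142, limma). Acot1 kept an adjusted p of 0.0109 to 0.0473 when 1 array was left out, with changes of 0.87 to 1.01.

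**Figure D3:**
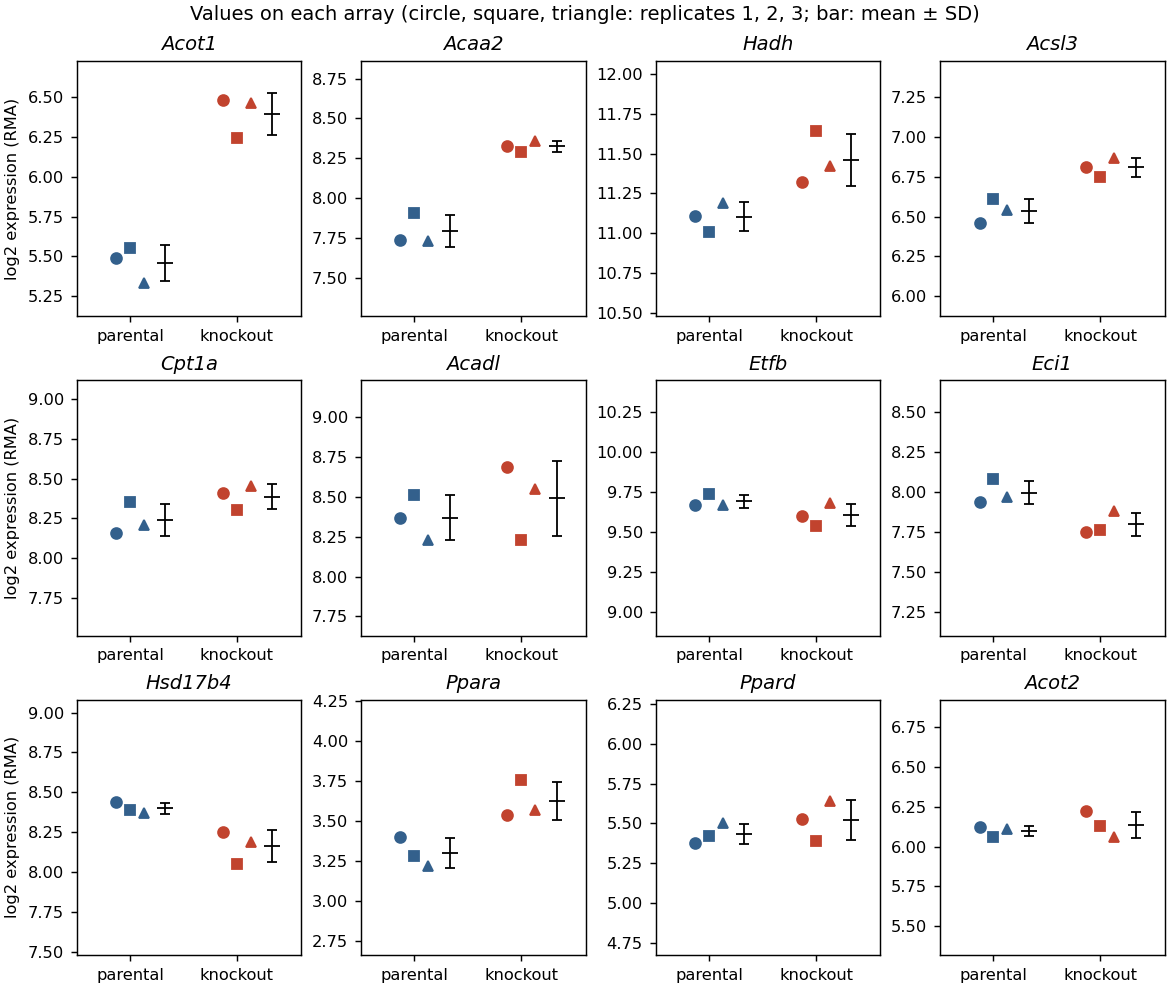
Log2 RMA expression on each array for 12 genes (circle, square and triangle for replicates 1, 2 and 3, bars for mean ± SD, n = 3), each panel spanning the same range of the log2 scale. The groups are far apart for Acot1 and Acaa2, closer but without overlap for Hadh, Acsl3, Eci1, Hsd17b4 and Ppara, and overlapping for Cpt1a, Acadl, Etfb, Ppard and Acot2.

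The other enzymes of the mitochondrial oxidation rounds did not pass. Hadh, the dehydrogenase of medium and short 3-hydroxyacyl-CoA that acts just before the thiolase, read 11.11, 11.01 and 11.19 in parental and 11.32, 11.64 and 11.42 in knockout samples. The groups did not overlap, but the change of 0.36 (SE 0.10, 95% interval 0.13 to 0.59) had an adjusted p of 0.283. Other probe sets of Hadh gave 0.38 (adjusted p = 0.267) and, not above background, 0.22. With the feeder covariate the change of Hadh was 0.51 (adjusted p = 0.0923).

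Hadha and Hadhb encode both subunits of the trifunctional protein for long chains and are neighbours on chromosome 5. Hadha gave -0.09 (95% interval -0.26 to 0.08) and Hadhb 0.15 (-0.04 to 0.35). Echs1, the short-chain hydratase, gave 0.03 (-0.21 to 0.27). Of the 5 genes of these steps, 1 rose (Acaa2), 0 fell and 4 did not pass. Over all genes, 0.0934% rose and 0.511% fell by the same rule. Acaa2 was known from earlier results when the list was drawn up, so this count is not independent of that choice.

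The acyl-CoA dehydrogenases start each round, and 0 of 4 passed. By the same rule 0.0934% of all genes rose and 0.511% fell, so 0 of 4 is near those shares. Acadl, the long-chain enzyme, read 8.37, 8.51 and 8.23 in parental and 8.69, 8.23 and 8.55 in knockout samples, with overlapping groups (change 0.12, SE 0.13, adjusted p = 0.837). Its direction was not stable, since the feeder covariate gave -0.10. Acadm, the medium-chain enzyme, varied little within groups and lay lower on each knockout array, at -0.11 (SE 0.07, adjusted p = 0.697). The very long-chain enzyme Acadvl gave 0.12 (95% interval -0.09 to 0.32), and the short-chain enzyme Acads gave 0.06 (-0.14 to 0.27).

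Electron transfer flavoprotein takes electrons from these dehydrogenases and passes them to ubiquinone through the Etfdh product. None of the 3 genes passed (limma), and 0 had an unadjusted p under 0.05. Over all genes, 4.66% were higher and 6.37% lower at that level, so 0 of 3 is near those shares. Etfb read 9.67, 9.74 and 9.67 in parental and 9.60, 9.54 and 9.68 in knockout samples, so 1 knockout array lay within the parental range (change -0.09, SE 0.07, adjusted p = 0.787). Etfa gave 0.03 (95% interval -0.16 to 0.22) and Etfdh 0.00 (-0.24 to 0.23).

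Enzymes that prepare unsaturated chains for oxidation are Eci1, Eci2 and Decr1. Eci1, a mitochondrial enoyl-CoA isomerase gene, read 7.94, 8.08 and 7.97 in parental and 7.75, 7.76 and 7.88 in knockout samples. The groups did not overlap, and the change of -0.20 (SE 0.08, adjusted p = 0.479) did not pass. Eci2 gave 0.09 (95% interval -0.09 to 0.26) and Decr1 0.13 (-0.08 to 0.35).

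The peroxisomal genes also gave no call. Hsd17b4, which encodes the bifunctional enzyme for branched and very long chains and lies on chromosome 18 like Acaa2, read 8.44, 8.39 and 8.37 in parental and 8.25, 8.05 and 8.19 in knockout samples. The groups did not overlap, in the direction opposite to Acaa2 (change -0.24, SE 0.08, adjusted p = 0.391). On its other probe set, 1455777_x_at, the groups overlapped (change -0.19, SE 0.11, adjusted p = 0.638, limma). Acaa1a, the peroxisomal thiolase gene, gave 0.12 (95% interval -0.05 to 0.29). Another probe set of Acaa1a alone gave 0.18 (-0.01 to 0.38). Both probe sets that Acaa1a shares with Acaa1b gave 0.10 and 0.06. Ehhadh, which encodes the other bifunctional enzyme, was not above background in either group.

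Genes of the entry into the pathway did not pass. Acsl3, an acyl-CoA synthetase gene linked to lipid droplets, read 6.46, 6.61 and 6.54 in parental and 6.81, 6.75 and 6.87 in knockout samples. The groups did not overlap on any of its 3 probe sets, which gave 0.27, 0.18 and 0.15, the last not above background. The adjusted p of the first was 0.285. Acsl4, a synthetase gene with a preference for arachidonic acid, gave 0.12 (95% interval -0.13 to 0.37) and Acsl5 gave -0.06 (-0.28 to 0.16).

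Cpt1a encodes the carnitine palmitoyltransferase of the outer mitochondrial membrane, the rate-controlling step of long-chain entry. It read 8.16, 8.35 and 8.21 in parental and 8.41, 8.30 and 8.45 in knockout samples, and the groups overlapped by 1 array (change 0.15, SE 0.08, adjusted p = 0.654). Its other probe sets gave 0.20 and 0.21 without overlap, and neither passed. Cpt2, the inner membrane transferase gene, gave 0.09 (95% interval -0.18 to 0.36), and the carrier gene Slc25a20 gave -0.01 (-0.19 to 0.16). The probe set that Cpt1b shares with 2 other genes gave 0.08 (-0.16 to 0.31).

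The PPAR receptor genes did not pass. Ppara read 3.40, 3.28 and 3.22 in parental and 3.54, 3.76 and 3.57 in knockout samples. The groups did not overlap, but every array lay below the background level of 3.78, so the change of 0.32 (SE 0.09, adjusted p = 0.279) compares signals that were not above background. Its other probe sets gave 0.17 and 0.07 and were not above background either. Ppard read 5.38, 5.42 and 5.50 in parental and 5.53, 5.39 and 5.64 in knockout samples, with overlap (change 0.09, SE 0.09, adjusted p = 0.824).

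**Figure D4:**
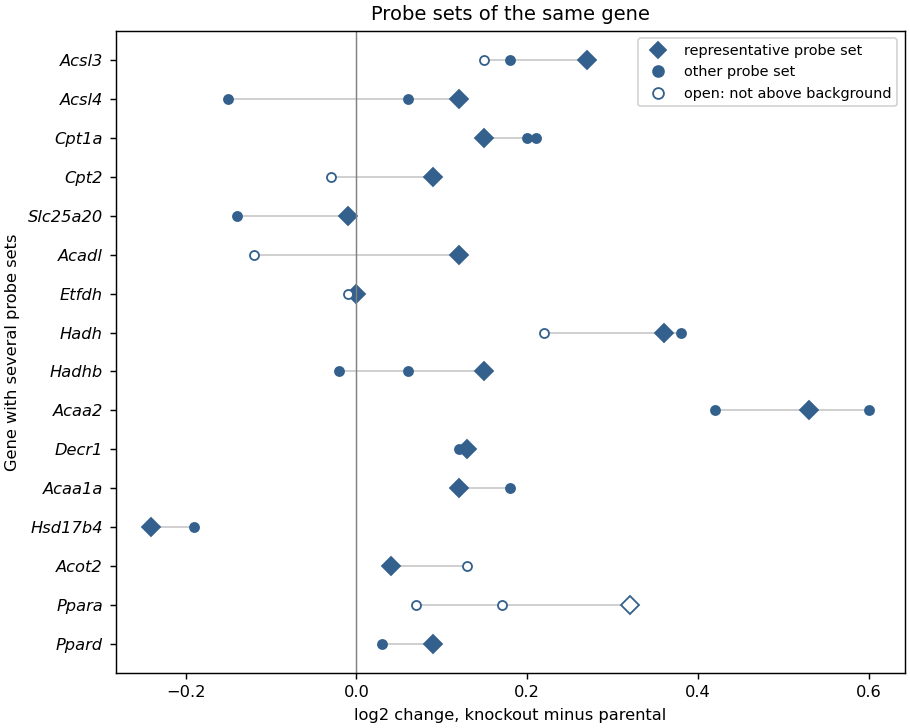
Log2 change (knockout minus parental) of each probe set for the 16 genes with more than 1 probe set of their own, with diamonds for the representative and open symbols for probe sets not above background. The 3 probe sets of Acaa2 lie at 0.42 to 0.60, those of Hadh at 0.22 to 0.38 and those of Acsl3 at 0.15 to 0.27, while Acsl4, Cpt2, Acadl and Hadhb have probe sets on both sides of 0.

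Of the 32 genes, 16 had further probe sets, 23 in all. These had the sign of the representative in 19 cases, and in 13 of the 15 that were above background. Over all 55 probe sets 3 were called, 1 of Acot1 and 2 of Acaa2, all higher, beside 0.0688% of all probe sets called higher. Of the 30 genes that were not called, 28 were above background, and their 95% intervals reached from -0.42 (Hsd17b4) to 0.59 (Hadh). In linear terms this is 0.748-fold to 1.5-fold of array signal, so a doubling or halving of the signal lay outside the interval for each of the 28. Ppara and Ehhadh were not above background, and their intervals put no bound on a change in expression. The median half-width of these intervals was 0.19. The 32 genes lie on 16 chromosomes with at most 3 on any of them, and the called genes lie on different ones.

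Related genes were taken from 8 lists with 128 entries, of which 116 were measured. By limma 0 of them were called, and 10 were higher and 4 lower when the p below 0.05 was left unadjusted. Over all genes, 4.66% were higher and 6.37% lower at that level, and 0.0934% and 0.511% were called. The median change was 0.03. In the list of other peroxisomal genes (16 measured), 4 were higher and 1 lower at that level. Slc27a2, a very long-chain acyl-CoA synthetase gene, gave -0.46 (SE 0.14, adjusted p = 0.348), and Decr2, a peroxisomal dienoyl-CoA reductase gene, gave 0.35 (SE 0.11, adjusted p = 0.351).

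Other PPAR targets gave 0 higher and 1 lower of 16 at an unadjusted p under 0.05, with a median of -0.02. These counts are near the shares of all genes, 4.66% and 6.37%. Fabp3, a fatty acid binding protein gene, gave -0.47 (SE 0.10, adjusted p = 0.157), without overlap between the groups. Fabp4, another binding protein gene of fat and other cells, gave 0.38 (SE 0.26, adjusted p = 0.725). The targets Cidea, Fabp1, Cyp4a14 and Cd36 were not above background.

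Among other receptors and cofactors, 0 of 9 had an unadjusted p under 0.05, beside 4.66% higher and 6.37% lower over all genes. The coactivator gene Ppargc1b gave 0.28 (SE 0.13, adjusted p = 0.564) and the corepressor gene Nrip1 gave 0.20 (SE 0.14, adjusted p = 0.713). Pparg, Rxrg and Ppargc1a were not above background. In the list of other activation and uptake genes (13 measured), Acss2, an acetyl-CoA synthetase gene, gave 0.31 (SE 0.09, adjusted p = 0.286) and the transporter gene Slc27a4 gave -0.19 (SE 0.10, adjusted p = 0.635).

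Further mitochondrial acyl-CoA and carnitine genes (19 measured) included 3 higher and 0 lower at an unadjusted p under 0.05, beside 4.66% and 6.37% of all genes. The largest changes were those of Acad11, an acyl-CoA dehydrogenase gene (-0.26, SE 0.12, adjusted p = 0.552), and Acat1, the thiolase gene of ketone and isoleucine metabolism (0.24, SE 0.07, adjusted p = 0.338). In the synthesis list of 17 genes, the desaturase gene Fads1 gave 0.25 (SE 0.13, adjusted p = 0.610) and the elongase gene Elovl6 gave 0.22 (SE 0.10, adjusted p = 0.534). In the list of the tricarboxylic acid (TCA) cycle (17 measured), Suclg2, a succinyl-CoA ligase subunit gene, gave -0.22 (SE 0.07, adjusted p = 0.360) and Dld, the shared dehydrogenase subunit gene, gave 0.18 (SE 0.08, adjusted p = 0.526).

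Within groups the 32 genes did not scatter evenly over the arrays. In the parental group, 15, 21 and 7 of the 32 lay above their group mean on replicates 1, 2 and 3. In the knockout group these counts were 21, 7 and 24. For all genes above background, the share above the group mean lay between 44.2% and 53.3% on the 6 arrays. Shared deviations were not particular to the 32 genes. Over 26803 probe sets above background, deviations correlated at 0.495 between parental replicate 3 and knockout replicate 2. Between parental replicate 2 and knockout replicate 3 they correlated at 0.504. Genes that move together are not separate observations, and the related lists were not counted this way. Relative to the parental mean, the median over the 32 genes was 0.00, 0.04 and -0.03 on the parental arrays. On the knockout arrays it was 0.10, -0.04 and 0.11. Knockout replicate 2 thus lay close to the lowest parental array, well within the pooled SD of 0.06 of this median within groups. The feeder marker mean was 10.66, 10.78 and 10.60 on the parental arrays and 10.91, 10.67 and 10.84 on the knockout arrays, with knockout replicate 2 the lowest of its group as well. The part of the feeders in this pattern was not tested beyond the covariate fit, in which the median change of the 32 genes was 0.02.

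**Figure D5:**
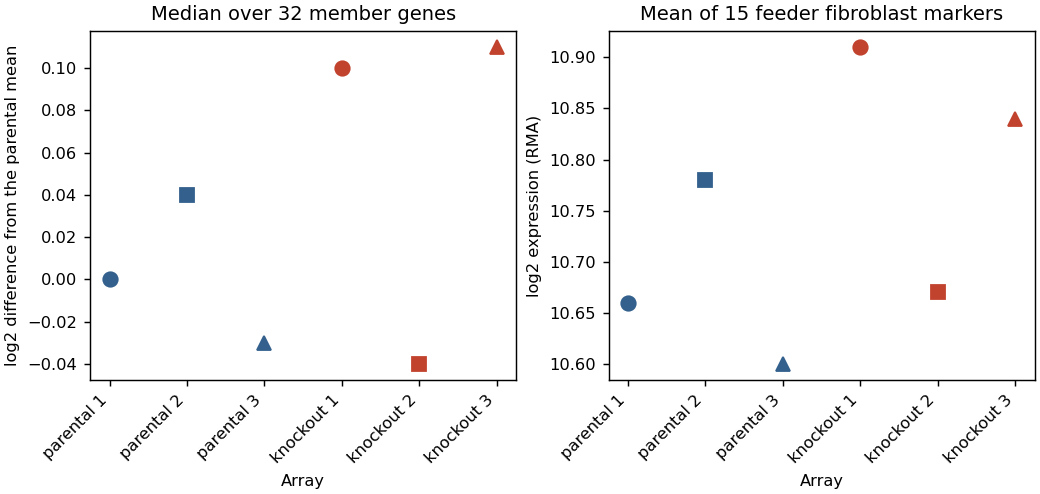
Median of the 32 genes relative to their parental means (left, log2 difference) and mean of 15 feeder fibroblast markers (right, log2 RMA expression) on each array, blue for parental and red for knockout, with the axes not starting at 0. Parental replicate 3 and knockout replicate 2 are the lowest of their groups in both panels, at -0.03 and -0.04 on the left and 10.60 and 10.67 on the right.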

How the data were processed

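Per the labels' protocols, total RNA of 6 samples was biotin-labelled with Affymetrix reagents and measured on arrays. The authors deposited log2 values per probe set, made by RMA per the submitters' processing notes. Software, settings and genome build were not given in the sources used here. The log2 scale was read from the values (2.12 to 13.98). RMA gives arrays a common distribution, so a shift of most transcripts would not be visible. After 64 control probe sets were left out, a linear model without covariates was fitted (lmFit and eBayes, limma 3.58.1, R 4.3.3) and p-values were adjusted by Benjamini-Hochberg over 45037 probe sets. The number of arrays limits the precision. The labels do not state separate cultures, so p-values measure only the scatter among these arrays, possibly technical. Among the 32 genes, values on every array are given for those called, both PPAR genes, those without overlap and with a change of at least 0.3, and the largest change in each role; Acot2 and its shared probe set were added after their values were seen. From related lists, the 2 largest changes above background are named, as no gene was called. Members and lists were chosen with earlier results of these data known. The procedure was run on simulated data with the same variance for every probe set and independent noise. That run does not cover the unequal variances and correlated deviations of these arrays. Alternatives were repeated quantile normalization, array medians subtracted, a replicate block, a robust prior with an intensity trend, filters on dim and on x_at and s_at probe sets, the mean of a gene's probe sets, the feeder covariate and leaving out each array. All 32 genes matched RefSeq by gene ID.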

Additional observations from a re-analysis of the deposited data

How the results depend on the processing

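All probe sets called numbered 181, against 88 with the replicate block, 312 with an intensity trend and robust prior, 100 with the feeder covariate and, leaving out each array in turn, 70 to 112 (limma). The 2 genes called became 0 with the replicate block (6 of 32 had an unadjusted p under 0.05), 1 without x_at and s_at probe sets, 1 with the feeder covariate and 1 to 1 without any single array. The 1 that remained was Acot1 in each of these. Without x_at and s_at probe sets Acaa2 was read on 1428145_at, at 0.42 (adjusted p = 0.0894). The 3 probe sets called became 0 with the block, 1 with the feeder covariate and, leaving out any array, 1 to 1. The block left the changes at 0.94 for Acot1 (adjusted p = 0.0579) and 0.53 for Acaa2 (0.200). Array numbers were not taken as pairs, since the deviations of same-numbered arrays correlated at 0.172, -0.463 and -0.398. Parental replicate 2 correlated with knockout replicate 3 at 0.504 and parental replicate 3 with knockout replicate 2 at 0.495, and no fit used that matching. Over the 14 alternatives, the adjusted p ran from 0.00321 to 0.0579 for Acot1 and from 0.0134 to 0.200 for Acaa2, always with a change above 0. Alternatives for single genes were run for the 11 chosen by the rule for values on every array, and of these Acadl turned its direction, to -0.10 with the feeder covariate, and was at 0.00 with the mean of its probe sets. The related lists had 0 calls throughout, with 13 to 18 genes at an unadjusted p under 0.05. In the main fit, 4.66% of all genes were higher and 6.37% lower at that level. The median change of the 32 genes stayed between 0.02 and 0.12. The cause of these shifts was not tested.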
